A study of Mus musculus with 3 samples.

Results

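The genes described here encode a transcription factor, transporters and an enzyme by which cells of the renal medulla accumulate organic osmolytes, and the urea transporters of the kidney. They are Nfat5, Slc6a12, Slc5a3, Slc6a6, Akr1b3, Slc14a1 and Slc14a2. Members were taken as the probe sets, each a group of array probes read as 1 value, whose annotation gives exactly 1 of these symbols. This found 18 probe sets of 6 of the 7 named genes, out of 18193 genes with such a probe set. Akr1b3, aldose reductase, had none and is not analysed here.

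Kidney RNA came from C57BL/6 mice, with 1 array per kidney. Starting at an age of 3 weeks, 2 mice drank water with 200 mM acetate for 6 weeks; acetate, labelled C2, is a short-chain fatty acid. A further mouse, 1 in all, is labelled control. The sources used here give neither the salt form of the acetate, nor the content of the control water, nor the sex of the animals. All values are the authors' deposited log2 expression values, on which a difference of 1 is a 2-fold difference.

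The interstitium of the renal medulla is made hypertonic by sodium chloride and urea, which drives water out of the collecting duct. Cells there keep their volume by accumulating betaine, myo-inositol, taurine, sorbitol and glycerophosphocholine. Nfat5, also called TonEBP, is the transcription factor that binds tonicity enhancers near the genes of the betaine and myo-inositol transporters and of aldose reductase. Urea itself is recycled through urea channels of the inner medullary collecting duct, the thin limb and the descending vasa recta.

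The window upstream of the Slc6a12 start is shown because it holds a match to the tonicity enhancer, and the Slc5a3 window is shown for comparison because it holds none. Sequences are from RefSeq, build GRCm38.p6, plus strand, each the 250 bases before the first annotated start of the gene. Capitals mark TGGAAA, the core of the tonicity enhancer.
Slc6a12, chr6:121342324-121342573: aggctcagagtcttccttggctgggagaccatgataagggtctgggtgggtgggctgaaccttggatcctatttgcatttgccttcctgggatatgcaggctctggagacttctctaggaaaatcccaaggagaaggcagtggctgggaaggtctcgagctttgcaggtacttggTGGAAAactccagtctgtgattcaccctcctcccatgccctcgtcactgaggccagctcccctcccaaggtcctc
Slc5a3, chr16:92058072-92058321: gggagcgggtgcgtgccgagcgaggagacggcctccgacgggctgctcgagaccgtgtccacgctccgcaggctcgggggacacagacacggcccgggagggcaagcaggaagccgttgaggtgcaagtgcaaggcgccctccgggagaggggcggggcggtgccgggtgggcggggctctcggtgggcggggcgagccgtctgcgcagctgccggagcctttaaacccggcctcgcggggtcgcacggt

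The core TGGAAA was searched on both strands in windows of 250 bases before to 50 after each start. The Slc6a12 match begins 75 bases before the start and reads TGGAAAactcc at chr6:121342499-121342509, which also fits the longer tonicity enhancer consensus that contains this core. Of all 32851 windows, 21.4% hold the core and 4.96% hold the longer consensus. Windows were given for 3 of the members. The other 4 windows of Slc6a12, at later starts, and the windows of Nfat5 and Slc5a3 hold neither motif. These matches describe letters in these windows and do not show binding.

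The arrays carried the kidney's defining markers at high values. Umod of the thick ascending limb, Slc34a1 of the proximal tubule and Aqp2 of the collecting duct lay at percentiles 99.9, 99.8 and 98.9 of all probe sets. The array medians were 4.94 and 4.93 in the acetate-fed kidneys and 4.91 in the control kidney. Exactly equal values on all 3 arrays were found at 30.0% of probe sets, which bears on the tests below. With 1 control array the control has no spread of its own, and an exact permutation test over 3 arrays cannot give a one-sided p below 0.333. In whole kidney, fewer cells of a type and less RNA per cell cannot be told apart.

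Of the 6 genes, each read by its brightest probe set, 5 exceeded the control kidney in both acetate-fed mice, and Slc14a2 was lower in mouse 1 and higher in mouse 2. In comparison, 26.0% of 13473 tested genes were higher in both. The median difference of the 6 was 0.47 in mouse 1 and 0.56 in mouse 2 on the log2 scale, against medians of 0 over all tested genes. Slc6a12 and Slc5a3 were at least 1.5-fold higher in both mice, 2 of 6 genes, where the share of all tested genes past that fold is 1.75%. None of the 6 genes was at least 2-fold higher in both on its brightest probe set, where the share of all tested genes is 0.408%. Counted by probe set, 4 were at least 1.5-fold higher in both mice, where the share of all tested probe sets is 1.67%, and 1 of these was at least 2-fold higher, where that share is 0.344%. By limma with Benjamini-Hochberg adjustment over all tested probe sets, 0 of the 6 genes passed 0.05, where 8.89% of all tested genes did. An unadjusted limma p under 0.05 was found for 2 of the 6, and for 5407 of all 27022 tested probe sets. The adjusted p of the 6 spanned 0.0816 to 0.982. With exactly tied acetate-fed pairs left out of the fit, 4 of the 6 passed limma as higher, where 6.14% of 10444 genes did: Slc5a3 (adjusted p = 5.1e-05), Slc6a12 (adjusted p = 0.000694), Nfat5 (adjusted p = 0.0292) and Slc14a1 (adjusted p = 0.032). That fit drew its spread mainly from all probe sets, so a pass there says little about the agreement of the acetate-fed pair. The genes were chosen with earlier results of these arrays known, so these counts are a description.

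**Figure D1:**
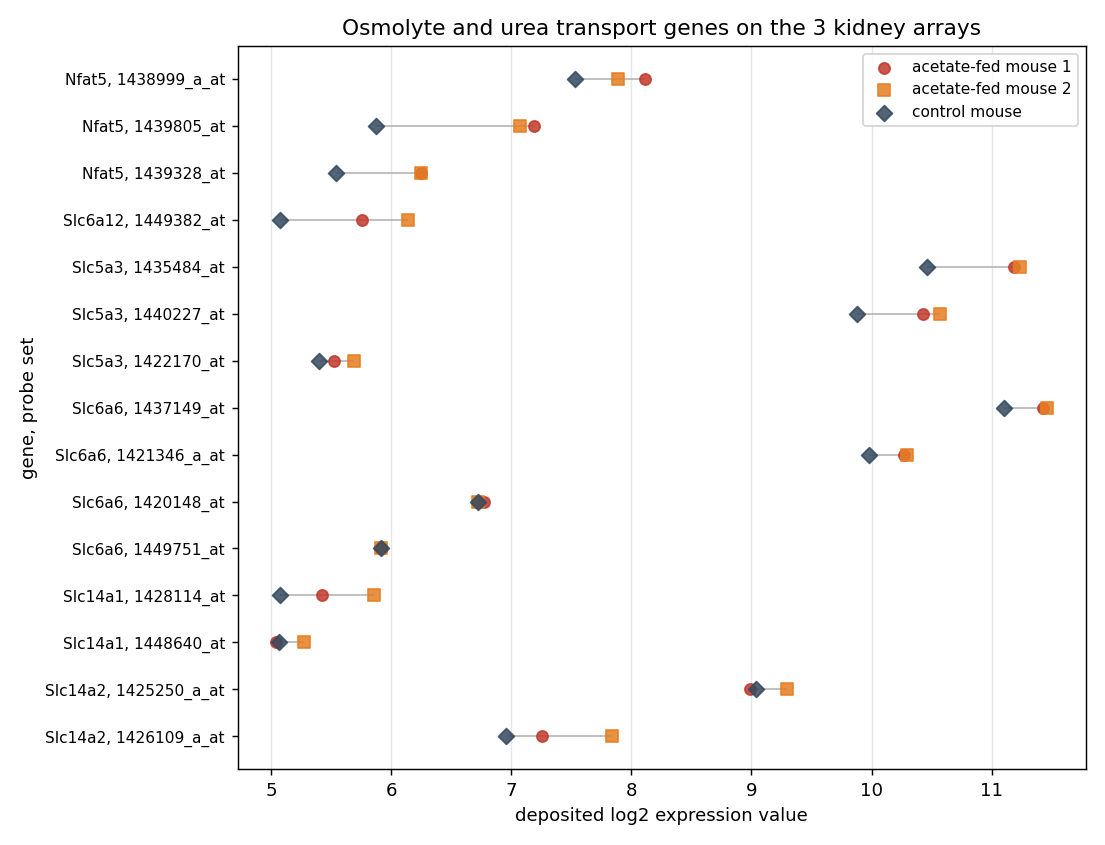
Deposited log2 value (horizontal axis) of each of the 15 tested probe sets of the 6 genes (vertical axis), with circles for acetate-fed mouse 1, squares for acetate-fed mouse 2 and diamonds for the control mouse; grey lines span the 3 arrays. For Nfat5, Slc6a12 and Slc5a3 the control lies left of both acetate-fed mice on every probe set shown, while for Slc14a2 the brightest probe set has the control between the acetate-fed mice.

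Nfat5, the regulator, was measured by 6 probe sets, of which 3 passed the filter on low values. The brightest, 1438999_a_at, read 8.11 and 7.89 in the acetate-fed kidneys and 7.53 in the control kidney. Both acetate-fed values were above the control, by 1.498-fold in mouse 1, just short of the 1.5-fold line, and 1.28-fold in mouse 2 (limma adjusted p = 0.504).

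A second Nfat5 probe set, 1439805_at, read 7.19 and 7.07 in the acetate-fed kidneys and 5.87 in the control kidney. It was 2.48-fold and 2.29-fold higher, the only one of the 18 probe sets at least 2-fold higher in both mice, where the share among all tested probe sets is 0.344%. Its mean of 7.13 ± 0.08 (SD, n = 2) lay 1.25 above the control on the log2 scale, a distance far larger than the gap of 0.12 between the acetate-fed mice, with a limma adjusted p of 0.126.

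The third, 1439328_at, read exactly 6.25 in each acetate-fed kidney and 5.54 in the control kidney, 1.64-fold higher. This was the only 1 of the 15 tested member probe sets to pass limma (adjusted p = 0.00906), where 10.5% of all tested probe sets passed in either direction and 5.18% as higher. Its acetate-fed values were exactly tied, as were those of 92.3% of all calls against 33.7% of all tested probe sets. The call was absent after quantile normalization (adjusted p = 0.24), after median centring (adjusted p = 0.0928) and when testing was limited to the upper 40% (adjusted p = 0.0562), so it is given as the fit made it.

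The other 3 Nfat5 probe sets lay under the filter. Both 1426029_a_at, at 3.03, and 1448966_a_at, at 3.61, did not vary at all over the 3 arrays. The third, 1451921_a_at, read 3.43 and 2.89 in the acetate-fed kidneys and 3.03 in the control kidney. The 3 brighter Nfat5 probe sets were thus higher in both mice but differed in size. The 3 dimmer ones, all under the filter, were tied or mixed.

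Slc6a12 encodes the betaine transporter BGT1, which also carries GABA, and has 1 probe set. It read 5.75 and 6.14 in the acetate-fed kidneys and 5.07 in the control kidney. Both acetate-fed values were above the single control value, by 1.60-fold and 2.10-fold. Their mean was 5.95 ± 0.27 (SD, n = 2), and the mean difference of 0.87 exceeded the gap of 0.39 between the acetate-fed mice, with a limma adjusted p of 0.477. With a pseudocount of 16 on the linear scale it was no longer 1.5-fold higher in both mice, and it lies below the upper 40% of probe sets by its level.

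Slc5a3 encodes the sodium-dependent myo-inositol transporter SMIT1 and has 3 probe sets, all tested and all higher in both mice. The brightest, 1435484_at, read 11.19 and 11.23 in the acetate-fed kidneys and 10.46 in the control kidney. The acetate-fed mice lay 0.04 apart and were 1.65-fold and 1.70-fold above the control, with a mean difference of 0.75 ± 0.03 (limma SE) and an adjusted p of 0.0816.

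The next Slc5a3 probe set, 1440227_at, read 10.43 and 10.57 in the acetate-fed kidneys and 9.88 in the control kidney, 1.46-fold and 1.61-fold higher (limma adjusted p = 0.291). The dimmest, 1422170_at, read 5.52 and 5.69 in the acetate-fed kidneys and 5.40 in the control kidney, 1.09-fold and 1.22-fold higher (limma adjusted p = 0.707). All 3 have the order control, mouse 1, mouse 2 from low to high, but differ in size. Slc5a3 overlaps Mrps6, which encodes a mitochondrial ribosomal protein, in the RefSeq gene table. The brighter Mrps6 probe set read 11.17 and 11.78 in the acetate-fed kidneys and 11.13 in the control kidney, a difference of 0.04 in mouse 1 and 0.65 in mouse 2, and the other Mrps6 probe set had 0.02 and 0.67. The brightest Slc5a3 probe set differed from the control by 0.73 and 0.77. The differences of the genes were thus close in mouse 2 and apart in mouse 1, and the part of Mrps6 transcripts in the Slc5a3 values was not tested.

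Slc6a6 encodes the taurine transporter TauT and has 4 probe sets, all tested. The brightest, 1437149_at, read 11.43 and 11.46 in the acetate-fed kidneys and 11.11 in the control kidney. It was 1.25-fold and 1.28-fold higher, and the gap of 0.04 between the acetate-fed mice was a small part of the mean difference of 0.34 (limma adjusted p = 0.144).

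The second Slc6a6 probe set, 1421346_a_at, read 10.27 and 10.30 in the acetate-fed kidneys and 9.98 in the control kidney, 1.23-fold and 1.25-fold higher (limma adjusted p = 0.115). Of the remaining Slc6a6 probe sets, 1449751_at had 5.91 on all 3 arrays, and 1420148_at read 6.77 and 6.72 in the acetate-fed kidneys and 6.72 in the control kidney. The brighter pair of probe sets thus agreed on the size of the difference, and the dimmer pair showed none or nearly none.

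Slc14a1 encodes UT-B, the urea channel of descending vasa recta and of red blood cells, and Slc14a2 encodes the UT-A channels of the inner medullary collecting duct and thin descending limb. Both urea transporter genes read higher in mouse 2 than in mouse 1 on each of their probe sets, and neither passed limma with all tested probe sets in the fit. With tied pairs left out, the probe set 1428114_at of Slc14a1 passed (limma adjusted p = 0.032) and so did 1426109_a_at of Slc14a2 (limma adjusted p = 0.0206), while the other probe set of each gene did not; 6.55% of all probe sets in that fit passed as higher. The Slc14a1 probe set 1428114_at read 5.42 and 5.86 in the acetate-fed kidneys and 5.07 in the control kidney, 1.28-fold and 1.72-fold higher (limma adjusted p = 0.677). Its mean difference of 0.57 was close to the gap of 0.43 between the acetate-fed mice. The other, 1448640_at, read 5.04 and 5.27 in the acetate-fed kidneys and 5.07 in the control kidney, so the control lay between them (limma adjusted p = 0.945).

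For Slc14a2, the brighter probe set 1425250_a_at read 8.99 and 9.29 in the acetate-fed kidneys and 9.04 in the control kidney. The control lay between the acetate-fed mice, and the mean difference of 0.10 was smaller than their gap of 0.31 (limma adjusted p = 0.982). The dimmer probe set 1426109_a_at read 7.26 and 7.84 in the acetate-fed kidneys and 6.95 in the control kidney, 1.23-fold and 1.85-fold higher (limma adjusted p = 0.783). Slc14a2 gives rise to several UT-A transcripts, and which of them each probe set reads was not examined here. Without mouse 2 the difference of the brighter probe set was -0.05, and without mouse 1 it was 0.26.

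**Figure D2:**
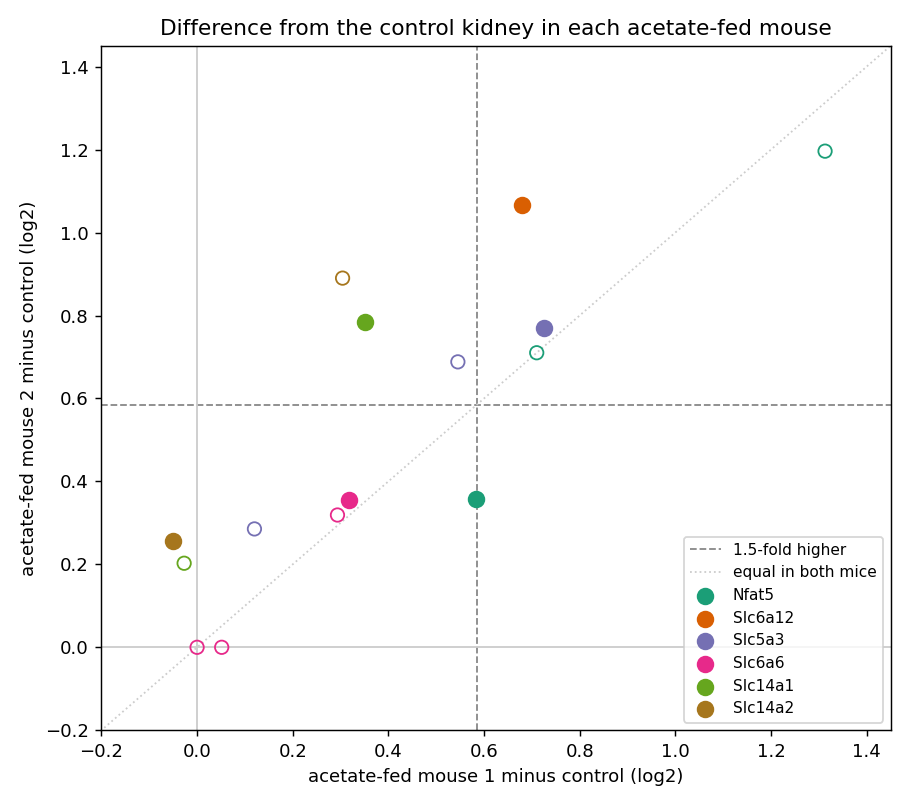
Log2 difference from the control kidney in acetate-fed mouse 1 (horizontal axis) and acetate-fed mouse 2 (vertical axis) for the 15 tested probe sets; filled points are the brightest probe set of each gene, open points its others, dashed lines mark 1.5-fold higher and the dotted line equal differences. Both axes share the control array. Slc5a3 and Slc6a6 lie near the dotted line, Slc6a12, Slc14a1 and Slc14a2 above it, and the brightest Nfat5 probe set below it, at 0.58 and 0.36.

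The members differed in how the acetate-fed mice compared with each other. Slc5a3 and Slc6a6 had nearly equal values in both mice on their brightest probe sets. Slc6a12, Slc14a1 and Slc14a2 were higher in mouse 2, by 0.39, 0.43 and 0.31 on the log2 scale, whereas Nfat5 was lower in mouse 2, by 0.23. In all, 5 of the 6 genes were higher in mouse 2 than in mouse 1, against 38.9% of all tested genes, for Slc5a3 and Slc6a6 by only 0.04. That share counts exact ties as not higher. Acetate-fed values were tied at 33.7% of tested probe sets and at none of the brightest probe sets of the 6 genes. This grouping was seen in the data and was not tested.

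Over the 3 arrays, the genes whose pair of differences from the control was closest to that of Slc6a12 were Racgap1, a regulator of cell division, at a Euclidean distance of 0.06 log2 units, Inmt, a methyltransferase of tryptamine and other amines, at 0.07, and Ttc19, a mitochondrial complex III assembly factor, at 0.10. Only 2 tested genes lay within 0.1 of Slc6a12. Closest to Slc5a3 were Pamr1 at 0.02, the AP-1 subunit gene Junb at 0.03 and the epithelial keratin gene Krt18 at 0.04, among 13 tested genes within 0.1. A likeness over 3 arrays is a description only.

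Related genes of osmolyte and urea handling were listed in 7 groups of 40 genes in all, of which 33 were tested. In both acetate-fed mice 14 of these exceeded the control and 9 lay below it, where the shares of all tested genes are 26.0% and 30.9%. A 1.5-fold difference in both mice was met by 3 genes as higher and 0 as lower, where the shares of all tested genes are 1.75% and 1.6%. With mouse 1 left out, 7 genes passed that fold as higher and 1 as lower in mouse 2. This rule is looser than the one for both mice, and its share over all tested genes was not computed. By limma 1 was called higher and 1 lower, where 5.18% of all tested probe sets passed as higher and 5.35% as lower. Both were NFAT paralogs with tied acetate-fed values. The median difference over the 33 genes was 0 in mouse 1 and 0.01 in mouse 2, against 0 over all tested genes.

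The hypertonic response group, genes reported to respond to tonicity in renal or other cells, had 9 of 11 tested genes higher in both mice and 0 lower. The shares of all tested genes are 26.0% and 30.9%. In the group 0 passed limma, and medians were 0.23 (mouse 1) and 0.57 (mouse 2). Aqp2 is in this group and also among the collecting duct markers below. S100a4, a calcium-binding protein also made by macrophages and fibroblasts, read 7.09 and 6.70 in the acetate-fed kidneys and 5.93 in the control kidney, 2.24-fold and 1.71-fold higher (limma adjusted p = 0.448). Sgk1, a kinase that stimulates sodium transport and is also induced by corticosteroids, read 11.74 and 11.71 in the acetate-fed kidneys and 11.04 in the control kidney, 1.63-fold and 1.59-fold higher (limma adjusted p = 0.0713). Both were at least 1.5-fold above the control in each mouse. Both were lower in mouse 2 than in mouse 1, while 6 of the 11 were higher in mouse 2. Among these 6 and named after their values were seen, the chaperone gene Hspa1b read 9.95 and 10.61 in the acetate-fed kidneys and 9.50 in the control kidney, and the water channel gene Aqp2 read 11.93 and 12.55 against 11.43.

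Enzymes and other carriers of the osmolytes were mixed in direction. In the polyol group, Akr1b8, an aldo-keto reductase related to aldose reductase, read 7.92 and 7.32 in the acetate-fed kidneys and 6.26 in the control kidney, 3.16-fold and 2.09-fold higher (limma adjusted p = 0.475), while Akr1b10, the other tested gene of that group and named after its values were seen, differed by -0.08 and -0.06. Among the 4 tested myo-inositol genes 1 exceeded the control in both mice and 2 lay below it. The second sodium-dependent myo-inositol transporter gene, Slc5a11, read 8.96 and 8.96 in the acetate-fed kidneys and 9.10 in the control kidney, a difference of -0.14 in each mouse (limma adjusted p = 0.0638).

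Of 5 tested taurine and betaine genes, 1 exceeded the control in both mice and 2 lay below it. Slc6a20b, an imino acid transporter, read 10.16 and 9.87 in the acetate-fed kidneys and 10.60 in the control kidney (limma adjusted p = 0.513). Of 4 glycerophosphocholine genes 0 exceeded the control in both mice and 1 lay below it. That gene, Pnpla6, a phospholipase that yields glycerophosphocholine, differed by -0.15 and -0.16 (limma adjusted p = 0.0906). In the urea and glycerol group, with 3 tested genes of which 1 was higher and 2 lower, Aqp3, a channel for water and glycerol, differed by 0.18 and 0.70. Among the 4 NFAT paralogs, which respond to calcium rather than tonicity, the brightest Nfatc3 probe set was 0.09 lower on the log2 scale (limma adjusted p = 0.0329). Nfatc2, named after its values were seen as the other limma call, was 0.04 higher on its brightest probe set (limma adjusted p = 0.0379). Both calls had exactly tied acetate-fed values. The 2 other tested Nfatc2 probe sets had mean differences of -0.14 and 0.12, and the other Nfatc3 probe set -0.01.

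**Figure D3:**
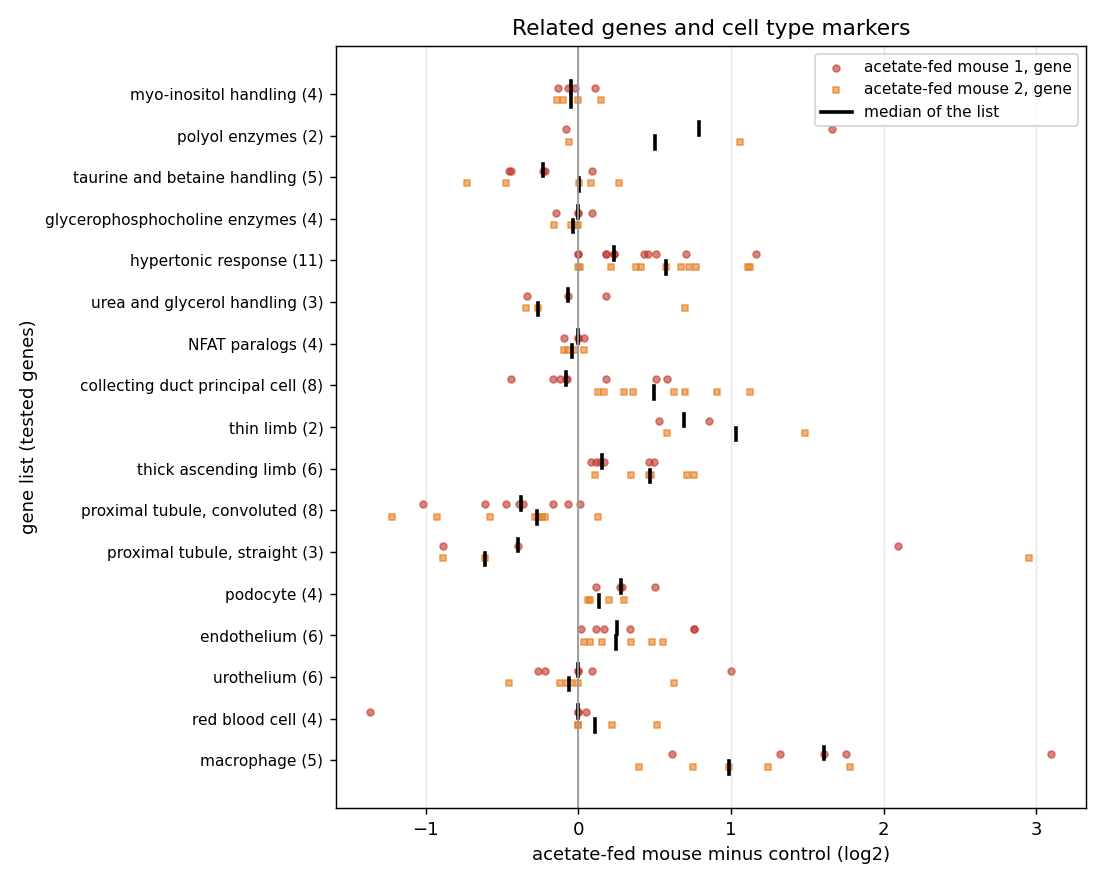
Log2 difference from the control kidney (horizontal axis) of each tested gene of the related lists and cell type marker lists (vertical axis, number of tested genes in brackets), with circles for acetate-fed mouse 1 and squares for acetate-fed mouse 2; black bars are list medians. List medians lie to the right in both mice for polyol enzymes, hypertonic response, thin limb, thick ascending limb, podocyte, endothelium and macrophage. The collecting duct list has medians of -0.08 and 0.49.

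Markers of nephron segments also differed between these kidneys. All 8 collecting duct principal cell markers were higher in mouse 2 than in mouse 1, and 3 of 8 were higher than the control in both mice. These were led by Aqp2, with differences of 0.51 and 1.13, and Aqp4, with 0.58 and 0.91. Named after their values were seen, the others lay below the control in mouse 1 and above it in mouse 2. In mouse 1 they were Avpr2 (-0.08), Fxyd4 (-0.08), Hsd11b2 (-0.165), Scnn1b (-0.12) and Scnn1g (-0.44). The summed level of the 8, log2 of the summed linear values, was 13.18 and 13.70 in the acetate-fed kidneys and 13.01 in the control kidney. Aqp2, the brightest of the 8, weighed most in it. All 6 thick ascending limb markers were higher in both mice, Cldn19 by 0.46 and 0.76 and Slc12a1, the salt cotransporter blocked by loop diuretics, by 0.50 and 0.71, with summed levels of 14.35 and 14.43 in the acetate-fed kidneys and 14.13 in the control kidney. Both tested thin limb markers were higher, Fst by 0.85 and 1.49 and Bst1 by 0.53 and 0.58, with summed levels of 9.01 and 9.44 in the acetate-fed kidneys and 8.30 in the control kidney.

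Markers of the proximal tubule and of podocytes differed in direction. Of 8 markers of the convoluted proximal tubule 7 were lower in both mice and 1 higher, with Slc22a6 2.02-fold and 2.34-fold lower and Slc22a8 1.53-fold and 1.90-fold lower, and summed levels of 14.89 and 14.81 in the acetate-fed kidneys and 15.22 in the control kidney. Of 3 straight proximal tubule markers 2 were lower, with Cyp7b1 at -0.88 in each mouse, and Slc7a13 was higher by 2.10 and 2.95, with summed levels of 8.65 and 8.89 in the acetate-fed kidneys and 8.68 in the control kidney. All 4 tested podocyte markers were higher, Synpo by 0.50 and 0.20 and Podxl by 0.27 and 0.30, with summed levels of 10.32 and 10.27 in the acetate-fed kidneys and 10.03 in the control kidney. The other tested Podxl probe set had a mean difference of 0. The part of these segment differences in the osmolyte and urea transporter values was not tested.

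Markers of other cells that the tissue could hold, red blood cells and endothelium of the vasa recta among them as known sites of Slc14a1, were read the same way. All 6 endothelial markers were higher in both mice, Cdh5 by 0.76 and 0.55 and Pecam1 by 0.76 and 0.48, with summed levels of 12.16 and 12.13 in the acetate-fed kidneys and 11.87 in the control kidney. The other tested Cdh5 probe set had a mean difference of only 0.07. Of 10 listed red blood cell genes 5 had a probe set, and of 4 tested 1 was higher in both mice. Alas2 differed by -1.37 and 0.52. Hbb-b2 differed by 0.05 and 0.22 at low values of 4.74 and 4.91 against 4.69, and its other tested probe set by a mean of -0.25. Hba-a2, at 4.91, and Epb42, at 4.24, did not vary over the 3 arrays. Summed levels were 7.37 and 8.68 in the acetate-fed kidneys and 8.26 in the control kidney, in the order of Alas2. These values are a poor reading of red blood cell content. Of 6 urothelial markers 1 was higher, Krt5 by 1.00 and 0.63, and 2 were lower, Upk3a among them at -0.27 and -0.46, with summed levels of 9.17 and 9.06 in the acetate-fed kidneys and 9.08 in the control kidney. All 5 macrophage markers were higher, Lyz2 by 3.10 and 1.78 and Cd74 by 1.76 and 1.24, each larger in mouse 1 than in mouse 2, with summed levels of 13.25 and 12.57 in the acetate-fed kidneys and 11.45 in the control kidney. No value is 0 on this scale, detection calls were not used, and the part of these cells in the members' values was not tested.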

How the data were processed

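Biotin-labelled kidney cRNA was read on single-colour Affymetrix mouse arrays, per the labels. The authors deposited log2 expression values for 45101 probe sets, with array medians of 4.91 to 4.94. The tool listed there, per the submitters' processing notes, is MAS5. Which summary and filters gave the log2 values is not stated in these sources, and scanner files were not used. The log2 scale was read from the values.

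Of 45037 probe sets, after 64 Affymetrix controls were left out, 34945 had 1 gene symbol, 932 had several and 9160 were unlisted. The symbols were set against RefSeq (GRCm38.p6), where 34741 matched by Entrez identifier. The upper 60% by mean over the 3 arrays, 27022 probe sets (lowest mean 4.21), were tested with limma 3.58.1 in R 4.3.3 (lmFit, eBayes with trend, Benjamini-Hochberg over all tested probe sets, threshold 0.05). Its 1 residual degree of freedom is the gap between the acetate-fed arrays, whose spread also stands in for that of the control. The labels give each array as a mouse of its own. A gene is represented by its probe set with the highest mean. A fold count asks for at least 1.5-fold, or 2-fold, in the same direction in both mice, with no test. In related lists the text names genes at least 1.5-fold from the control in both mice (at most 3 a list), otherwise the 1 with the largest mean difference. In marker lists it names the 2 largest. Hspa1b and Aqp2 as tonicity genes, Akr1b10, Nfatc2, Hba-a2, Epb42 and the collecting duct markers lower in mouse 1 fall outside this rule. The members and lists were chosen with earlier results of these data known. Tables and plots used Python 3.11.15, pandas 2.3.3 and matplotlib 3.10.9.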

Additional observations from a re-analysis of the deposited data

How the results depend on the processing

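Across 36 recalculations of the 6 genes' mean differences (quantile normalization, median centring, a pseudocount of 16, each acetate-fed mouse left out, the mean over all probe sets of a gene), 35 kept their sign. The exception was Slc14a2, with -0.0503 to 0.257 when a mouse was left out and the negative value without acetate-fed mouse 2. The median over the 6 genes, 0.52 as reported, was 0.42 with the pseudocount and 0.39 with the mean over all probe sets, and 0.47 to 0.56 with a mouse left out. The count of genes at least 1.5-fold from the control in both mice, 2 as reported, was 1 with the pseudocount and 1 in the upper 40% of probe sets. With a mouse left out, 2 to 3 genes passed that fold in the remaining mouse alone, which is a looser rule. The share of all tested genes past it in a single mouse was not computed. Related genes past that fold numbered 3 higher and 0 lower as reported, and 3 to 7 higher and 0 to 1 lower when the remaining mouse alone had to pass it. The 2846 limma calls, 1400 higher and 1446 lower, became 6523 with no filter, 3140 higher and 3383 lower. They became 0 (0 higher, 0 lower) with quantile normalization, median centring or the upper 40%, where 4303, 4959 and 3513 probe sets had an unadjusted p under 0.05. With tied acetate-fed pairs left out, 2064 of 17923 were called, 1174 of them higher (6.55%) and 890 lower, and 4 of the 6 genes passed as higher instead of 0, where 6.14% of genes did: Nfat5, Slc6a12, Slc5a3 and Slc14a1. In that fit the spread was borrowed mainly across probe sets, with 26.5 prior degrees of freedom against 0.362 in the reported fit. The cause of the other differences was not tested. No paired analysis was possible because the single control array carries no replicate number shared with the acetate-fed arrays. Precision is limited by having 3 arrays.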
